A study of Mus musculus with 6 samples.

Results

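The integrated stress response regulators described here are 10 mouse genes, Atf4, Atf3, Atf5, Ddit3, Trib3, Cebpb, Cebpg, Sesn2, Ddit4 and Ppp1r15a, which encode transcription factors of the ATF4 pathway and its feedback proteins. They were matched by symbol, and all 10 were among the 14408 genes listed, with 10500 genes tested. The set was chosen by pathway membership with the difference between L-proline and PBS in these same libraries already known, so every difference of a member between the groups is a description. No p-value is given for a member, and the side of the threshold on which the fit across all genes puts it is stated as part of that description and supports nothing.

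The integrated stress response begins when a kinase that senses amino acid shortage, unfolded protein in the endoplasmic reticulum, heme shortage or double-stranded RNA phosphorylates the translation initiation factor eIF2. Protein synthesis then slows in general, while the mRNA of ATF4 is translated more, through upstream reading frames. ATF4 is a basic leucine zipper (bZIP) factor that pairs with C/EBP proteins on composite DNA elements and induces amino acid synthesis and transport genes, further factors such as CHOP (Ddit3), and proteins that end the response.

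The labels give the RNA as left ventricle, with 3 libraries of an L-proline group and 3 of a PBS group. The mice were C57BL/6J males aged 8 weeks when feeding began. In both groups heart failure of the preserved ejection fraction type was modelled by a high-fat diet plus the nitric oxide synthase inhibitor L-NAME at 0.5 g/L in the drinking water over 8 to 12 weeks. L-proline was then injected into the peritoneum at 300 mg/kg per day for 4 to 8 weeks, and the PBS mice received the vehicle. The stated interest of the study was ferroptosis and PPARγ signalling. No mice without the diet and L-NAME were included, and the labels do not say that each library is a separate animal, so the spread behind each p-value is that of the libraries and can be technical in part.

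Values are FPKM (fragments scaled by gene length and by library total), as the authors deposited them. They were whole multiples of 1 fragment for 14407 genes, which gave totals of 34990473 to 36778787 fragments in the L-proline libraries and 35925065 to 37498030 in the PBS libraries. Listed genes held 96.1% of the fragments of L-proline 3, against 98.6% to 98.8% in the other libraries. Heart muscle RNA was nearly missing: of 13 cardiomyocyte markers 6 were listed, Ttn, Ryr2, Myl2, Myh7 and Tnni3 stayed at or under 0.212 FPKM throughout, and the summed level was 13.8 to 16.4 FPKM in L-proline and 31.6 to 33.0 in PBS, almost all of it Tnnt2. The 7 listed fibroblast markers of 10 summed to 5119 to 5421 FPKM in L-proline and 4835 to 5034 in PBS. The 10 pericyte and smooth muscle markers summed to 1104.5 to 1322 in L-proline and 1210.2 to 1342 in PBS. Most of that was Acta2, which averaged 826 and 850 FPKM, followed by Des at 219 and 228. The markers Myh11, Rgs5 and Vtn stayed at or under 0.145 FPKM in every library. Endothelial markers (7 of 10 listed) summed to 4.20 to 5.26 and 7.75 to 8.93, macrophage markers (5 of 10) to 21.8 to 25.4 and 19.7 to 22.2, and T and NK cell markers (2 of 8, nearly all of it the chemokine gene Ccl5) to 69.0 to 96.1 and 31.5 to 32.0. Most of the endothelial sum was Fabp4, which averaged 2.55 FPKM in L-proline and 5.93 in PBS. Most of the macrophage sum was Cd14 (16.5 and 15.6), while Csf1r and Mrc1 stayed at or under 0.2741 FPKM in every library. The labelled tissue is therefore not seen in its muscle transcripts. The endothelial genes Pecam1, Cdh5 and Vwf were at or under 0.250 FPKM in every library, while the mesenchymal genes Vim and Col3a1 averaged 2328 and 1824 FPKM in L-proline and 2871 and 1226 in PBS. Whether these libraries hold RNA of whole ventricle or of other material, such as cultured cells, cannot be told from the labels, so each difference below is one between these libraries and may not be one of ventricular tissue. The part of these marker levels in the differences below was not tested. In bulk RNA, fewer cells of a type and less RNA per cell cannot be told apart.

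Sequences before the transcription start were read for all 10 regulators, in 11 promoter windows of 250 bases before to 50 bases after a start (RefSeq, GRCm38.p6). The C/EBP-ATF composite element was searched as TGATGNAA on both strands, since ATF4 and its partners bind such sites. It occurred in 2 of the 11 windows, those of Atf3 and Trib3, against 3.97% of 32851 windows in the table, and in 35.1% of 37 windows of the ATF4 target genes described further on. The cAMP response element TGACGTCA, which ATF and CREB factors bind, occurred in 1 window, that of Ppp1r15a, against 1.79% of all windows. The sequences below show these matches in capitals, together with the composite elements of Chac1 and Asns, ATF4 targets with large differences in these libraries. Mthfd2, another ATF4 target with a large difference, had no match in its 1 window, and for Cth no window was available.
Atf3 promoter, chr1:191183376-191183503, minus strand, match 110 bases upstream of the start: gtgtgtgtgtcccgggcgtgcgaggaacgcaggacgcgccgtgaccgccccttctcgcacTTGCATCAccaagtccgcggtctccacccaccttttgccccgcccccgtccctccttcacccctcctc
Ppp1r15a promoter, chr7:45526269-45526340, minus strand, match 12 bases upstream of the start: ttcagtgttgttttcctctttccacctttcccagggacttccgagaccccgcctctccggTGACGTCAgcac
Trib3, chr2:152344028-152344057, minus strand, match at base 15 from the start on: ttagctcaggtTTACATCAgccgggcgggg
Chac1, chr2:119351038-119351067, plus strand, match 193 bases upstream of the start: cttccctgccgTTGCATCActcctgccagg
Asns, chr6:7693214-7693243, minus strand, match 23 bases upstream of the start: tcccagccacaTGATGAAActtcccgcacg

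The composite element lies in opposite orientation in Asns and in the other 3 genes shown. A match is a description of letters and not of binding, and the other 8 regulators can carry such elements outside these windows. The letters CCACG, part of the ER stress element, were found in the windows of 7 regulators (32.8% of all windows), and ACGTG, the core of the hypoxia response element, in those of Ddit3, Ddit4 and Ppp1r15a (19.6% of all windows). Both were searched on both strands, and their matches can overlap. The median G and C content was 64.7% in the regulators' windows and 52.7% in all windows.

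All 10 regulators had a higher mean in L-proline than in PBS, from 1.12-fold for Cebpb to 12.7-fold for Trib3. By the fit across all genes, 7 of the 10 were past the threshold and higher (Atf4, Atf3, Atf5, Ddit3, Trib3, Sesn2 and Ppp1r15a), 0 were lower and 3 were not past it (Cebpb, Cebpg and Ddit4). Over all genes tested, 7.5% were past it and higher, and 12.1% past it and lower. For 9 of the 10 every L-proline library lay above every PBS library, which held for 16% of all genes tested. Because the choice of these genes used this contrast, nothing is read from the gap between their counts and those shares. The median log2 fold change on log2(FPKM + 1) was 0.77 for the 10 and -0.06 for all genes tested.

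**Figure D1:**
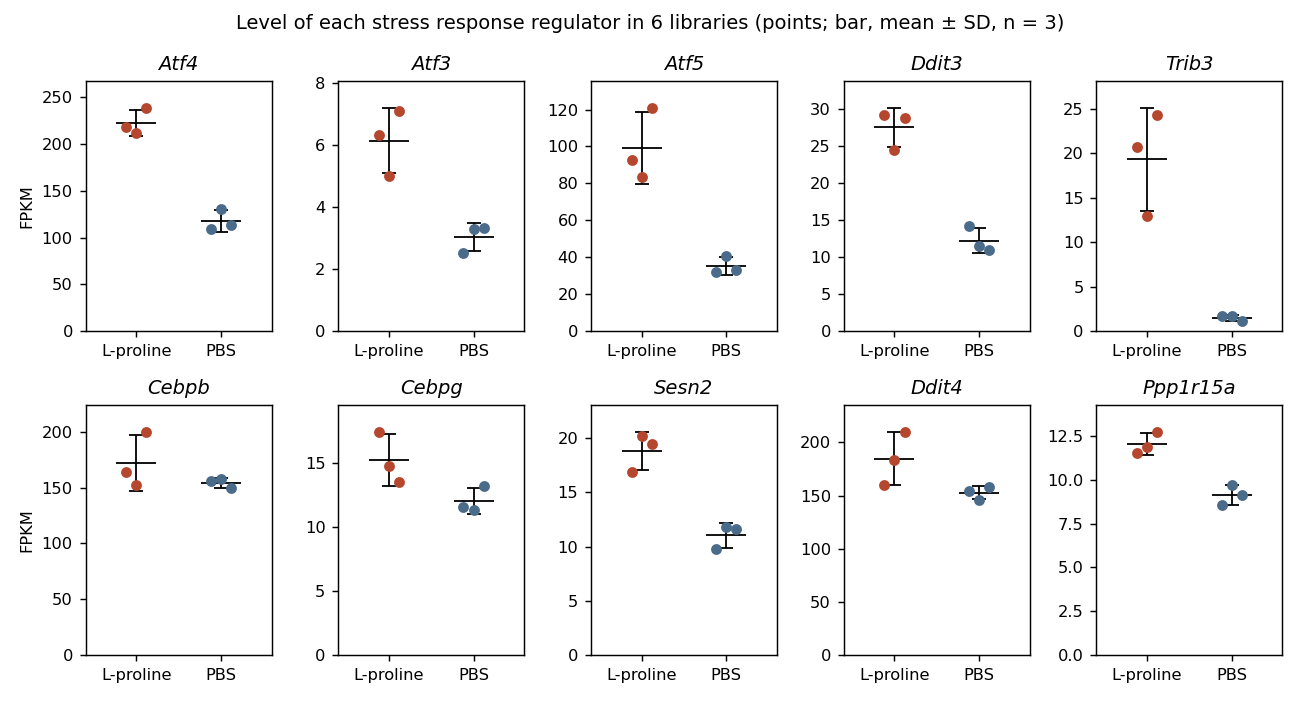
FPKM of each regulator in the 3 L-proline and 3 PBS libraries (points), with mean and SD as bars and a separate vertical axis from 0 for each gene. The groups are apart for 9 genes and overlap for Cebpb, where L-proline 2 at 153 FPKM lies below PBS 1 and PBS 2.

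Atf4, the central factor of the pathway, had 218, 212 and 239 FPKM in L-proline 1, 2 and 3, against 109.7, 131 and 113 FPKM in PBS 1, 2 and 3. The lowest L-proline library stood 1.62-fold above the highest PBS library. The means were 223 ± 14.0 and 118 ± 11.5 FPKM (SD, n = 3 each), a log2 fold change of 0.92 ± 0.09 (SE), and each library held between 7110 and 15186 fragments of the gene. The translation of Atf4 mRNA, the step at which the pathway chiefly acts on ATF4, was not measured.

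Atf5, a close relative of ATF4 that is also controlled through upstream reading frames, was at 92.9, 83.3 and 121 FPKM in L-proline and at 31.9, 40.9 and 33.2 FPKM in PBS. Its lowest L-proline value was 2.04-fold above its highest PBS value, with a log2 fold change of 1.45 ± 0.15. Ddit3, which encodes CHOP, a bZIP factor linked to cell death after lasting stress, was at 29.2, 24.5 and 28.8 FPKM in L-proline and at 14.2, 11.5 and 10.96 FPKM in PBS. The groups were apart by 1.73-fold between their nearest libraries (log2 fold change 1.11 ± 0.11). Atf3, a bZIP repressor induced by many stresses, was the lowest regulator in L-proline at 6.32, 5.02 and 7.11 FPKM, against 2.54, 3.29 and 3.32 FPKM in PBS, on 188 to 517 fragments per library. Its groups did not overlap either (0.82 ± 0.13). With a pseudocount of 0.1 the log2 fold change of Atf3 was 0.98, above that of Atf4 at 0.92, so the order of these genes depends on the pseudocount.

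The 2 C/EBP genes, whose proteins pair with ATF4, were not past the threshold. Cebpb, a C/EBP factor of inflammation and differentiation, had 164, 153 and 200.4 FPKM in L-proline and 156, 158 and 149.6 FPKM in PBS, so that only L-proline 1 and 3 lay above all PBS libraries. Its log2 fold change was 0.15 ± 0.10, and 0.04 without L-proline 3. Cebpg, a short C/EBP protein without an activation domain of its own, had 17.5, 14.7 and 13.5 FPKM in L-proline against 11.6, 11.3 and 13.2 FPKM in PBS. The lowest L-proline value was 1.02-fold the highest PBS value, and the log2 fold change of 0.31 ± 0.11 was past the threshold only with median-of-ratios scaling (0.37) and quantile normalization (0.37).

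Among the feedback genes Trib3 had by far the largest fold change. Trib3 encodes a pseudokinase that is induced by ATF4 and CHOP and restrains both, and it was at 20.7, 12.97 and 24.3 FPKM in L-proline against 1.70, 1.75 and 1.12 FPKM in PBS, on 931 to 1831 and 84 to 131 fragments. The lowest L-proline library was 7.41-fold above the highest PBS library, and its log2 fold change of 2.98 ± 0.21 was the highest of the 10500 genes tested with all libraries in. Without L-proline 3 it was 2.80, below the interferon-induced gene Ifit3 at 2.86. With all libraries and a pseudocount of 0.1 it was 3.56, because adding 1 to a level near 1.5 FPKM hides part of the change.

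Ppp1r15a encodes GADD34, which directs a phosphatase to eIF2 and so ends the response. It was at 11.6, 11.9 and 12.8 FPKM in L-proline and 8.57, 9.69 and 9.12 FPKM in PBS, with groups apart and a log2 fold change of 0.37 ± 0.08. It was no longer past the threshold without PBS 1 or without PBS 3, with log2 fold changes of 0.33 and 0.37. Sesn2 and Ddit4 both encode inhibitors of the growth kinase complex mTORC1. Sesn2 was at 16.9, 20.2 and 19.5 FPKM in L-proline and 9.73, 11.8 and 11.6 FPKM in PBS (0.72 ± 0.10), with the groups 1.43-fold apart. Ddit4 was at 160.1, 183 and 210.2 FPKM in L-proline and 154, 146 and 158 FPKM in PBS, so that L-proline 1 was 1.01-fold the highest PBS library. Its log2 fold change of 0.26 ± 0.10 was past the threshold only without L-proline 1 (0.36).

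**Figure D2:**
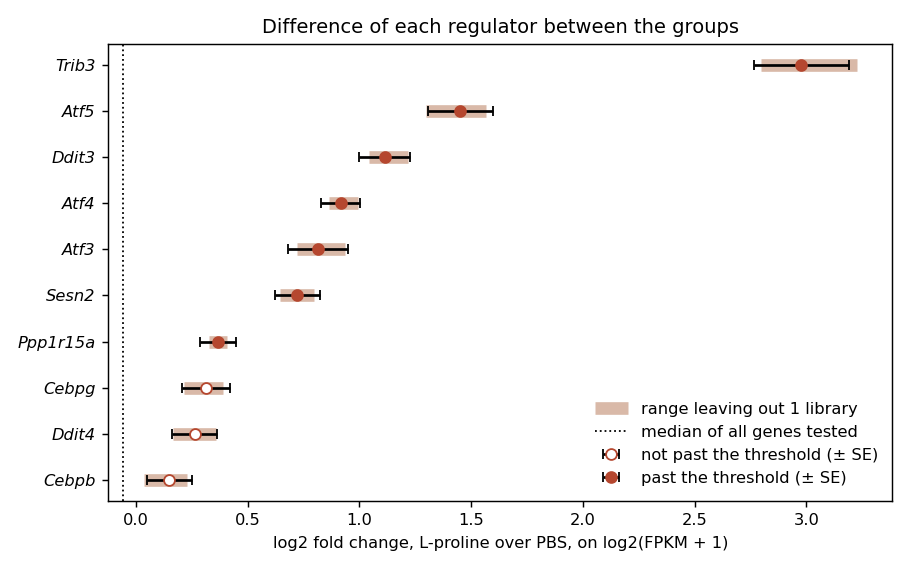
Log2 fold change (L-proline over PBS, on log2(FPKM + 1)) of the 10 regulators with SE as black bars, filled where past the threshold and open where not; pale bars give the range when each library is left out in turn, and the dotted line is the median of all genes tested at -0.06. Trib3 at 2.98 lies apart, and Cebpg, Ddit4 and Cebpb at 0.31, 0.26 and 0.15 are the open points.

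Counts in the fit depended on single libraries. The count of regulators past the threshold was 8 without L-proline 1, 6 without PBS 1 or PBS 3, and 7 when any other library was left out. The members just inside and just outside the threshold were Ppp1r15a at 0.37 and Cebpg at 0.31. Over all genes tested, 2056 passed, 788 higher and 1268 lower, which became 976 (392 and 584) without PBS 1 and 874 (366 and 508) without PBS 3, while without PBS 2 the lower genes numbered 843. Scaling shifted the split between directions: 996 were higher and 918 lower with median-of-ratios scaling, and 1077 and 1019 with quantile normalization.

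The order of the levels differed between the groups. In L-proline Atf4 was highest (223 FPKM), followed by Ddit4 (185) and Cebpb (172), whose ranges overlapped, and by Atf5 (99.0), whose range lay below theirs. Ddit3 (27.5) came next. Trib3 (19.3), Sesn2 (18.8) and Cebpg (15.2) followed with overlapping neighbours, and then Ppp1r15a (12.1) and Atf3 (6.15). In PBS Cebpb (154) and Ddit4 (153) overlapped at the top, Atf4 (118) and Atf5 (35.3) lay below them, Ddit3 (12.2), Cebpg (12.02) and Sesn2 (11.03) overlapped with their neighbours, and Ppp1r15a (9.13), Atf3 (3.05) and Trib3 (1.52) were lowest. By its mean Trib3 thus stood above 4 other regulators in L-proline and below all of them in PBS. In L-proline 2 alone it was at 12.97 FPKM, below Sesn2 (20.2) and Cebpg (14.7). These orders rest on the gene lengths used by the authors, which came out of the FPKM steps at 1518 bases for Cebpb to 4702 for Cebpg. The length for Ddit3 was 2542 bases, against 1713 in the union of its GENCODE M21 exons and 969 in its longest transcript there, so its level per length is uncertain. The length also enters its log2 fold change through the pseudocount, which moved that value from 1.11 to 1.17 when set at 0.1.

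Deposited values cannot separate strands, since whether strand was used in counting is not stated in the labels or headers. In GENCODE M21 the exons of Atf5, Ddit3, Cebpb, Cebpg and Ppp1r15a overlap exons on the opposite strand, by 164, 81, 312, 4 and 12 bases. Those bases are summed over the opposite-strand genes of each regulator. Cebpg also shares 73 exon bases with Gm44836 on its own strand. For Ddit3 the opposite-strand genes are Gm4189 and the methionyl-tRNA synthetase gene (Mars1 in the table), the latter higher in L-proline by 0.56. The length used for Ddit3 was longer than these exons, so the overlap in the gene model that was counted is not known. For Atf5 they are Il4i1 and Nup62, and for Cebpb Tmem189, so fragments in those stretches are of uncertain origin. No other near-identical transcript, at 95% identity over 100 bases, was found for the 10 genes.

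Within the L-proline group the regulators tended to lie highest in the same library. L-proline 3 held the highest value for 7 of the 10 and was above the group mean for 9, Cebpg being the exception. L-proline 2 held the lowest value for 6, and lay above the group mean only for Sesn2. Trib3 deviated most, by 0.36 in L-proline 3 and by -0.50 in L-proline 2 on the log2(FPKM + 1) scale. In PBS, PBS 2 held the highest value for 6 regulators and PBS 1 the lowest for 5. The share of all genes tested that was highest or lowest in each library was not counted. Whether these orders are particular to the regulators therefore cannot be told. L-proline 3 is also the library with the lowest share of fragments in listed genes (96.1%) and a median-of-ratios factor of 0.951, against 0.992 and 0.993 for L-proline 1 and 2; the part of these values in its high regulator levels was not tested. Without L-proline 3 the log2 fold changes were 2.80 for Trib3, 1.30 for Atf5 and 0.87 for Atf4, and the same 7 regulators were past the threshold.

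**Figure D3:**
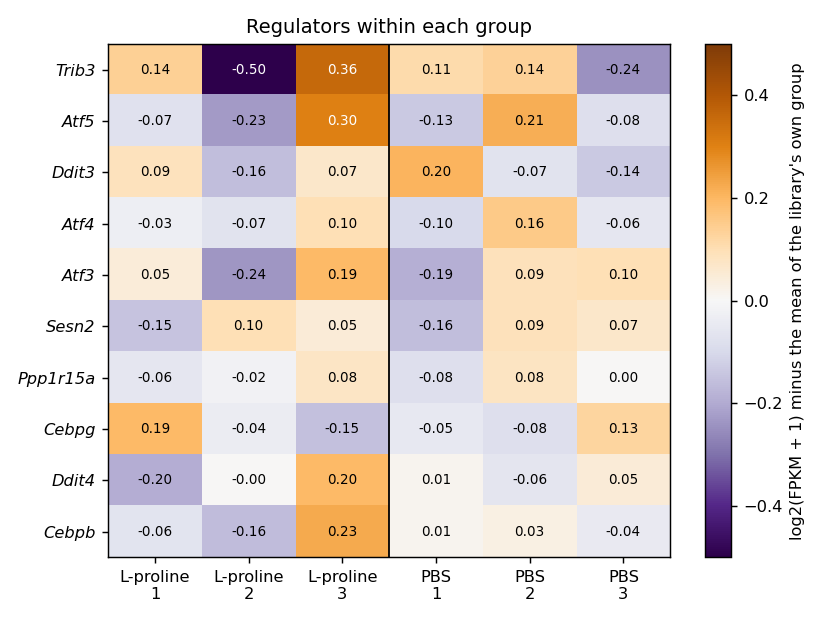
Deviation of each regulator (rows, ordered by log2 fold change) in each library from the mean of that library's own group, on log2(FPKM + 1); orange to brown is above and purple below the group mean. L-proline 3 is orange or brown for 9 of the 10 genes, and the strongest cell is Trib3 in L-proline 2 at -0.50.

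The spread between replicates was wider than counting noise for all 10 regulators in both groups. It was also wider over the listed genes as a whole, so this is not a trait of the regulators alone. Between libraries of a group, the chi-square per degree of freedom over those genes ran from 8.08 (PBS 1 and 3) to 81.9 (L-proline 1 and 3). For Atf4 the coefficient of variation was 6.27% in L-proline and 9.77% in PBS, against 0.847% and 1.16% from counting alone. For Trib3 it was 29.9% and 23.2%, against 2.63% and 9.34%. For Ppp1r15a it was 5.16% and 6.11%, against 3.13% and 3.58%. Counting noise came nearest to the observed spread for Ppp1r15a.

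The genes whose profile over the 6 libraries was nearest to that of Atf4 were Cars, Tap1 and Adar. The measure was the root mean square difference of log2(FPKM + 1) values centred on each gene's mean, at 0.0481, 0.0653 and 0.0680 among 10317 genes compared. Cars, the cysteinyl-tRNA synthetase gene, had 26.0, 24.9 and 28.7 FPKM in L-proline against 12.96, 14.2 and 13.6 FPKM in PBS. Tap1 and Adar are interferon-inducible genes, of peptide transport and RNA editing, with log2 fold changes of 0.80 ± 0.08 and 0.89 ± 0.08. For Trib3 the nearest genes were Ifit3, Ifit3b and Ifit1, interferon-induced antiviral genes, at the wider distances of 0.253, 0.346 and 0.478; Ifit3 and Ifit3b are near copies, so the division of fragments between them is uncertain. These distances describe 6 libraries in 2 groups and are given without a test. They depend largely on the size of the difference between the groups. The genes nearest to Trib3 (log2 fold change 2.98) were thus genes with similarly large differences, at 2.84 for Ifit3, 2.64 for Ifit3b and 2.40 for Ifit1. Whether these genes share a control with Trib3 or Atf4 was not tested.

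Paralogues of the regulators moved in both directions. Trib1 and Trib2, the other 2 Tribbles pseudokinase genes, both fell. Trib2 had 3.26, 3.71 and 3.51 FPKM in L-proline against 7.72, 6.54 and 7.25 FPKM in PBS (log2 fold change -0.86 ± 0.09, limma, adjusted p = 0.000886). Trib1 had 7.65, 6.94 and 8.07 FPKM against 11.7, 12.7 and 12.1 FPKM (-0.63 ± 0.08, adjusted p = 0.00226). Neither overlapped between the groups, and both remained past the threshold under all 12 alternative settings. The remaining paralogues were chosen after their values were seen. Sesn1 averaged 13.3 ± 0.256 FPKM in L-proline and 14.5 ± 0.819 in PBS, and Sesn3 10.3 ± 1.14 and 9.34 ± 1.48; neither passed. Ppp1r15b, which encodes the constitutive partner of the eIF2 phosphatase, rose by nearly the same amount as Ppp1r15a (47.3 ± 4.30 FPKM in L-proline, 36.0 ± 0.904 in PBS, 0.38 ± 0.08, adjusted p = 0.0152). Leaving out PBS 1 gave it an adjusted p of 0.0691 and leaving out PBS 3 one of 0.0631 (0.0104 to 0.0691 over the alternatives). Of the C/EBP genes, Cebpd fell (51.3 ± 4.62 and 65.97 ± 2.48 FPKM, adjusted p = 0.0202) and Cebpa did not pass (14.7 ± 1.60 and 13.3 ± 1.69). Jdp2, the relative of Atf3, rose (39.5 ± 6.15 and 26.0 ± 1.63 FPKM, adjusted p = 0.0101). Ddit4l, the relative of Ddit4, lay under the filter, with 118, 109 and 161 fragments in L-proline and 48, 48 and 37 in PBS.

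**Figure D4:**
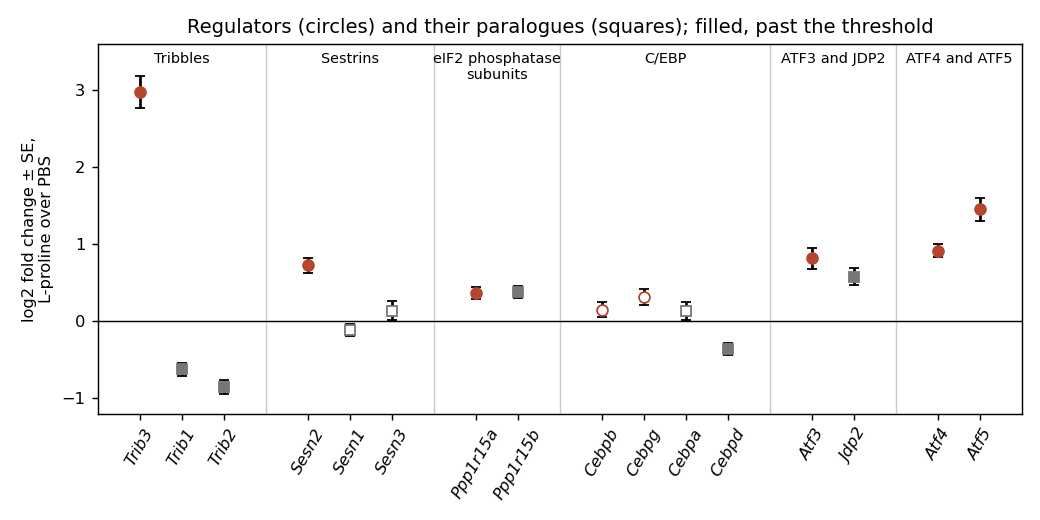
Log2 fold change (L-proline over PBS) with SE for the regulators (circles) and their tested paralogues (squares), grouped by family; filled symbols are past the threshold. Trib3 at 2.98 stands opposite Trib1 at -0.63 and Trib2 at -0.86, while Ppp1r15a and Ppp1r15b lie side by side at 0.37 and 0.38.

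In the wider list of 33 paralogues and bZIP partners, 29 were tested, 6 rose (20.7%, against 7.5% of all genes tested) and 5 fell (17.2%, near the 12.1% of all genes), with a median log2 fold change of 0.02. Maff, a small Maf protein gene, had the smallest p (8.59 ± 0.481 FPKM in L-proline, 23.2 ± 0.855 in PBS, -1.33 ± 0.08, adjusted p = 6.84e-05) and fell, as did Fosl1, a FOS family gene (29.3 ± 5.83 and 63.4 ± 1.24 FPKM, adjusted p = 0.00139). Outside the naming rule, the genes that rose were Atf6b (0.72), Fosl2 (0.44), Nfe2l1 (0.42) and Jun (0.34), besides Jdp2 and Ppp1r15b. The rises numbered 2 without PBS 3.

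Genes of the kinases and of the initiation machinery upstream of ATF4 mostly did not pass. The list held 20 genes, for eIF2 kinases, eIF2, eIF2B and the phosphatase, together with Gcn1, Impact, Dnajc3 and Eif2a. All were tested, 1 rose (Ppp1r15b, 5% of the list) and 0 fell. The other 19 did not pass, and the median log2 fold change was 0.04. Over all genes tested 7.5% rose and 12.1% fell, so most genes outside the list did not pass either. The RNA-activated kinase PKR (Eif2ak2), which is itself interferon-inducible, had 47.5, 34.5 and 24.8 FPKM in L-proline against 23.4, 16.5 and 22.1 FPKM in PBS. All L-proline libraries lay above all PBS libraries, with L-proline 1 highest and L-proline 3 close to PBS 1 (0.72 ± 0.22, adjusted p = 0.0543; 0.0169 to 0.131 over the alternatives). The heme-regulated kinase gene Eif2ak1 averaged 13.9 ± 0.861 and 11.8 ± 0.313 FPKM (0.22 ± 0.08, adjusted p = 0.0834), and Eif2b3, an eIF2B subunit gene, 3.60 ± 0.120 and 4.46 ± 0.287 (-0.25 ± 0.08, adjusted p = 0.0726). The amino acid sensor GCN2 (Eif2ak4, 8.54 ± 2.13 and 12.1 ± 2.49 FPKM) and the ER stress sensor PERK (Eif2ak3, 6.71 ± 0.363 and 6.57 ± 0.505 FPKM), named after their values were seen, did not pass. The count of rises was 0 without PBS 1 or PBS 3 and 3 without L-proline 3, and 2 genes fell without L-proline 1.

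Among 40 target genes of ATF4 outside the 10 regulators, 36 were tested, 25 rose and 1 fell, against 7.5% and 12.1% of all genes. The median log2 fold change of the 36 was 0.55, and 28 of them had every L-proline library above every PBS library, against 16% of all genes tested. These genes were listed from textbook knowledge with earlier results of the same libraries known, so their direction is not independent evidence. Chac1, which degrades glutathione, had 22.7, 20.2 and 26.7 FPKM in L-proline against 5.63, 5.82 and 5.38 FPKM in PBS (1.86 ± 0.11, adjusted p = 6.84e-05). Mthfd2, of mitochondrial folate metabolism, differed by 1.80 ± 0.10 (adjusted p = 6.84e-05), asparagine synthetase (Asns) by 1.60 ± 0.11 (adjusted p = 0.000187), and Cth, which makes cysteine, by 1.52 ± 0.11 (adjusted p = 0.000225). L-proline 3 was the highest L-proline library for Chac1, Mthfd2 and Asns, as it was for Trib3, and L-proline 2 the lowest for these 3 genes and for Cth. The share of all genes with this order was not counted. The gene that fell, named after its values were seen, was Mthfd1l, another mitochondrial folate gene (12.8 ± 1.85 and 18.9 ± 1.70 FPKM, adjusted p = 0.0153), which did not pass without PBS 3. Fgf21, Slc7a11, Slc7a3 and Stc2 lay under the filter.

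Target genes of ATF6 and XBP1, the other arms of the unfolded protein response, mostly did not pass. Of 24 such genes, 23 were tested. In the main fit 1 rose (4.35%) and 4 fell (17.4%), near the 7.5% and 12.1% of all genes. The median log2 fold change of -0.17 stayed below 0 under both other scalings, and 6 of the 23 genes were above 0 in the main fit. For 9 every L-proline library lay below every PBS library, and the share of all genes with this order was not counted. Falls numbered 6 with quantile normalization and 8 with the replicate block, where 1019 and 1475 of all 10500 genes tested fell. The gene that rose was Herpud1, an ER membrane protein gene with 33.9, 33.5 and 37.1 FPKM in L-proline against 20.1, 23.4 and 22.6 FPKM in PBS (0.64 ± 0.08, adjusted p = 0.00210). The ER chaperone BiP (Hspa5) was lower in each L-proline library, with 266, 324 and 252 FPKM against 375, 403 and 369 FPKM in PBS (-0.45 ± 0.10, adjusted p = 0.0171; 0.00374 to 0.0574 over the alternatives). Manf (154 ± 23.6 and 220.2 ± 14.2 FPKM, adjusted p = 0.0159) and Hsp90b1 (343 ± 77.1 and 506 ± 46.0 FPKM, adjusted p = 0.0389; 0.0110 to 0.132 over the alternatives) also fell, as did Creld2, named after its values were seen. The falls numbered 1 without PBS 1, 2 without PBS 2 and 0 without PBS 3. Xbp1 and Atf6, named after their values were seen, differed by 0.07 ± 0.09 and 0.00 ± 0.14.

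Genes linked to CHOP in cell death and redox control showed few calls: of 13 tested, 2 rose and 2 fell, 15.4% each way, which is near the 7.5% and 12.1% of all genes tested. Bbc3 (PUMA, a BH3-only death gene) had 5.92, 4.88 and 7.42 FPKM in L-proline against 3.43, 3.34 and 3.23 FPKM in PBS (0.69 ± 0.13, adjusted p = 0.00942), and it is also a p53 target. The death receptor gene Tnfrsf10b averaged 20.1 ± 2.01 and 14.9 ± 0.424 FPKM (0.41 ± 0.09, adjusted p = 0.0154). The thioredoxin-binding gene Txnip fell to 73.5, 69.0 and 80.2 FPKM in L-proline, against 241, 172 and 189 FPKM in PBS (-1.41 ± 0.13, adjusted p = 0.000466). Bcl2, a survival gene, was just past the threshold (1.93 ± 0.576 and 3.12 ± 0.297 FPKM, adjusted p = 0.0467; 0.0104 to 0.152 over the alternatives). Rises numbered 1 without PBS 1 or PBS 3, and falls 1 without L-proline 2, L-proline 3 or any of the PBS libraries.

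Since Sesn2 and Ddit4 act on mTORC1, the genes of that complex and its regulators were counted as well. Of 29 genes 26 were tested, 5 rose (Flcn, Lamtor1, Rragc, Rheb and Rraga) and 1 fell (Depdc5), against 7.5% and 12.1% of all genes tested. Flcn, the folliculin gene, was at 4.53, 4.39 and 5.45 FPKM in L-proline and 2.94, 2.73 and 2.70 FPKM in PBS (0.61 ± 0.10, adjusted p = 0.00501). Lamtor1, a lysosomal anchor of the complex, averaged 55.3 ± 4.36 and 38.4 ± 4.32 FPKM (adjusted p = 0.00981), and the Rag GTPase gene Rragc 37.5 ± 1.42 and 30.0 ± 1.16 FPKM (adjusted p = 0.0171). Depdc5, of the GATOR1 inhibitor complex, averaged 3.31 ± 0.107 and 4.45 ± 0.150 FPKM (adjusted p = 0.0215). Rheb and Rraga were named after their values were seen. Rises numbered 2 without PBS 1 or PBS 3 and 3 without PBS 2; falls numbered 3 without L-proline 1 and 0 without PBS 1 or PBS 3.

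Several regulators are also known targets of other pathways, whose genes moved in different directions. The part of any of these pathways in the levels of the regulators was not tested. Ddit4 is a hypoxia and glucocorticoid target. Here 0 of 20 hypoxia target genes rose and 10 fell, against 7.5% and 12.1% of all genes tested. The falls were led by Loxl2 (-0.79 ± 0.08), Pdk1 (-1.18 ± 0.11), Car9 (-0.82 ± 0.08) and Bnip3 (-1.03 ± 0.11), with limma adjusted p values of 0.000533 to 0.000826. Of 13 tested glucocorticoid target genes 1 rose and 7 fell, against the same shares of all genes. The gene that rose was Tsc22d3 (GILZ), at 19.7, 19.5 and 21.4 FPKM in L-proline and 10.9, 9.17 and 9.32 FPKM in PBS (0.98 ± 0.09, adjusted p = 0.000481), while Errfi1, Lcn2 and Mt2 fell by 1.12, 1.71 and 1.34 on the log2 scale. Ddit4 itself differed by 0.26 ± 0.10.

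Sesn2 and Atf3 are also p53 targets. Of 18 tested p53 target genes 12 rose and 0 fell, with a median log2 fold change of 0.45. Over all genes tested, 7.5% rose and 12.1% fell. This list too was made with earlier results of the same libraries known, so its direction is not independent evidence. The part of p53 in the levels of Sesn2 and Atf3 was not tested. Btg2, an antiproliferative gene, had 32.9, 34.8 and 36.1 FPKM in L-proline against 15.7, 15.4 and 16.8 FPKM in PBS (1.07 ± 0.07, adjusted p = 0.000190). Ei24 (0.71), Cdkn1a (0.63) and Aen (0.65) also rose, in log2 fold change. The rises numbered 7 without L-proline 2, PBS 1 or PBS 3. Atf3, Ppp1r15a and Cebpb are induced early by growth factors and stress. Of 19 tested immediate early genes 4 rose (21.1%) and 6 fell (31.6%), against the shares of all genes given above. Btg2 is on this list too. Egr1 fell to 11.3, 10.2 and 9.21 FPKM in L-proline, against 19.5, 16.9 and 18.8 FPKM in PBS (-0.79 ± 0.10, adjusted p = 0.00157), and Ier3 and Fosl1 fell by 0.89 and 1.10 on the log2 scale. Rises numbered 2 without L-proline 2, PBS 1 or PBS 3, and falls 3 without L-proline 2 or any PBS library.

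**Figure D5:**
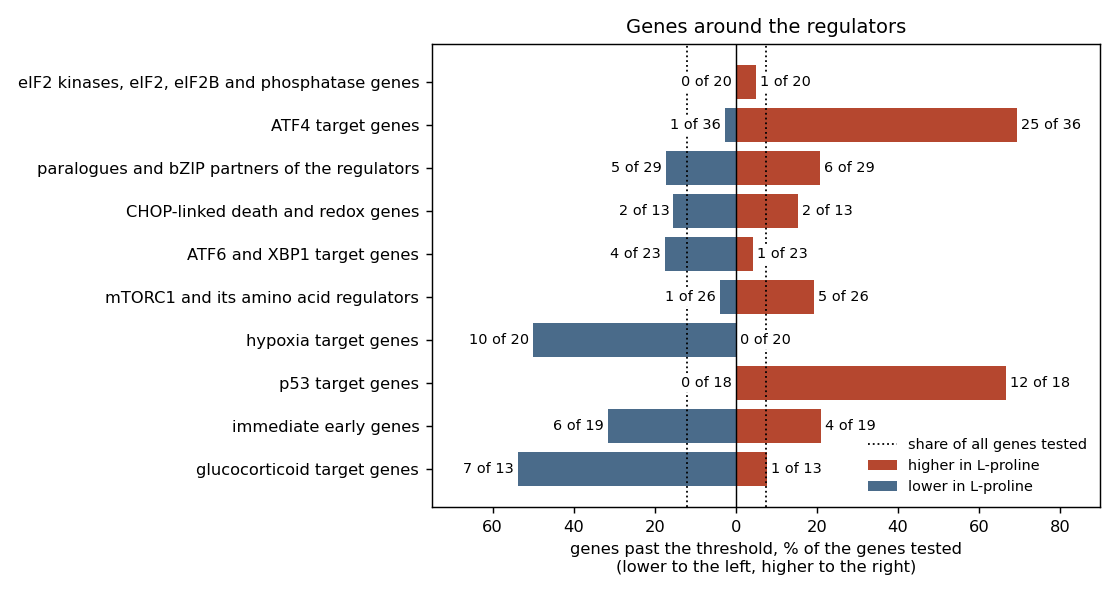
Share of tested genes past the threshold in each of 10 gene lists, higher in L-proline to the right and lower to the left, with counts; dotted lines mark the shares over all 10500 genes tested, 7.5% higher and 12.1% lower. The ATF4 target and p53 lists extend to the right (25 of 36 and 12 of 18), the hypoxia and glucocorticoid lists to the left (10 of 20 and 7 of 13).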

How the data were processed

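The authors deposited 1 table of FPKM values with 1 column per library, per the file headers. Polyadenylated RNA was sequenced as paired ends on a NovaSeq, per the labels' protocols; HISAT2, HTSeq 0.13.5 and the build GRCm39 appear in the submitters' processing notes with no role attached, and the rule by which genes were listed is not stated. Fragments were recovered from the FPKM steps, with totals solved on the 13 mitochondrially encoded genes and a tolerance of 0.01. Thus 1 fragment on 1 kb is worth 0.0267 to 0.0286 FPKM. This is the step of the values and not their spread between libraries, which was wider than counting noise.

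Genes with a mean of at least 1 FPKM entered a limma 3.58.1 fit (R 4.3.3) of log2(FPKM + 1) values (empirical Bayes with trend, two-sided), with Benjamini-Hochberg adjustment over all genes tested and a threshold of 0.05 on the adjusted p. Groups came from sample titles. The steps were tested on simulated data. Near-identical copies were searched with blastn 2.17.0. Symbols were matched to RefSeq tables of GRCm38.p6, used for names and promoter sequence only. Alternatives were another pseudocount, no filter, 2 scalings, voom on fragments, a replicate block and leaving out each library.

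The members and lists were chosen with earlier results of these data known. Genes named are the regulators, the 4 tested genes of smallest p in each list, the 3 nearest in profile to Atf4 and to Trib3, markers, and others said to be chosen after their values were seen. "Rose" and "fell" mean past the threshold.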

Additional observations from a re-analysis of the deposited data

How the results depend on the processing

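Of the 10 regulators, Atf4, Atf3, Atf5, Ddit3, Trib3 and Sesn2 were past the threshold under all 12 alternatives and Cebpb under none, and in 115 of 120 combinations of regulator and alternative the side of the threshold was as in the main result. Over all named genes that held for 610 of 648 combinations, with 29 falling below the threshold, 9 passing it and 0 changing direction past it. Leaving out 1 library in turn gave 874 to 2770 genes past the threshold in all (366 to 965 higher, 508 to 1805 lower) and 6 to 8 regulators. The number rising and falling ran from 23 to 27 and 0 to 1 for ATF4 targets, 2 to 7 and 4 to 7 for paralogues and bZIP partners, 0 to 3 and 0 to 2 for the eIF2 list, 1 to 1 and 0 to 5 for ATF6 and XBP1 targets, 1 to 2 and 1 to 2 for CHOP-linked genes, 2 to 6 and 0 to 3 for mTORC1 genes, 7 to 11 and 0 to 0 for p53 targets, 2 to 4 and 3 to 6 for immediate early genes, 0 to 0 and 8 to 11 for hypoxia targets, and 1 to 1 and 6 to 8 for glucocorticoid targets. Rises in the eIF2 list were 3 with quantile normalization and 3 with median-of-ratios scaling. CHOP-linked falls were 1 with a pseudocount of 0.1, 1 with no filter and 1 with median-of-ratios scaling. mTORC1 falls were 2 with no filter and 0 with quantile normalization. The cause of these changes was not tested.

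The correlations of the deviations of same-numbered libraries were 0.651, 0.416 and -0.348 for numbers 1, 2 and 3. L-proline 1 and 2 each correlated best with the PBS library of the same number, while L-proline 3 did so with PBS 2 (0.525). With 3 libraries in each group, these correlations cannot decide whether the libraries were paired. With the replicate block 2383 genes passed, 7 regulators among them; rises and falls were 2 and 1 in the eIF2 list, 2 and 8 among ATF6 and XBP1 targets, and 2 mTORC1 genes fell. Not every library correlated best with its own number. Depth limits Trib3 in PBS most, with 84 to 131 fragments.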
